A study of Homo sapiens with 4 samples.

Results

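The 10 genes NDRG1, DDIT4, STC1, STC2, AK4, MXI1, EGLN1, HIF1A, EPAS1 and ZNF395 were followed across the 4 arrays of the study. They are genes known for their part in the response to low oxygen, other than enzymes of glycolysis. Every probe set annotated to exactly 1 of these symbols was taken, which gave 15 probe sets of 22277 on the array and 10 genes of 11963 with a single-gene probe set. Members were partly chosen by the size of their difference between confluent and sparse cells on these arrays, so the values of that comparison are given as a description with no test.

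The arrays carried RNA of the human line BJ-TE, which derives from BJ foreskin fibroblasts; the genes introduced into the line are not given in the sources used here. The cells expressed either a hairpin directed at p73, a transcription factor of the p53 family (p73 shRNA), or a control hairpin that the labels call ns (ns shRNA). Each kind was collected at 100% and at 40% confluence, so the groups were p73 shRNA at 100%, ns shRNA at 100%, p73 shRNA at 40% and ns shRNA at 40%, with 1 array each. No group had a replicate, no second p73 hairpin was among the arrays, and no label gives an oxygen level or says how many clones or cultures were used.

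Cells sense oxygen through hydroxylases such as EGLN1, which mark the alpha subunits of hypoxia-inducible factor (HIF), HIF1A and EPAS1, for destruction through the VHL ubiquitin ligase. When oxygen is short the alpha subunits persist, pair with ARNT and bind a short core motif near their target genes. HIF1A and EPAS1 are regulated largely at the level of protein stability, whereas EGLN1, DDIT4, MXI1, AK4, NDRG1, STC1, STC2 and ZNF395 have been described as genes whose RNA increases in hypoxia. These arrays measure RNA only.

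Median intensity was 105 to 122 on the 4 arrays. TP73, the gene the hairpin targets, had 1 named probe set with intensities of 2.04 (p73 shRNA) and 1.65 (ns shRNA) at 100% confluence and 2.09 and 1.68 at 40%, at the lowest end of each array, so it gave no check of the hairpin. Of 16 fibroblast markers, 15 lay above the brightness filter, a mean log2 intensity at or above the median of all probe sets other than controls, against 2 of 10 for epithelial cells (KRT10 and KRT18), 1 of 6 for melanocytes (MITF) and none for endothelial or blood cells. The ratio of 3' to 5' signal of beta-actin, a measure of RNA integrity, was 1.38 (p73 shRNA) and 1.47 (ns shRNA) at 100% confluence, against 1.09 and 1.24 at 40%. It was higher at confluence and lower with p73 shRNA at both stages, and its part in either comparison was not tested. The same ratio of GAPDH was 1.02 on both arrays at 100%, against 0.979 (p73 shRNA) and 0.935 (ns shRNA) at 40%. In RNA of a whole culture, fewer cells of a kind and less RNA per cell cannot be told apart.

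The sequences before the transcription start of 5 of these genes are shown because members that rose at confluence can be set beside members that did not. RefSeq (GRCh38.p14) promoter windows were used for 7 of the 10 genes. The selection for these genes left out a whole chromosome, which the windows of the whole table did not. No window of NDRG1, STC1 or ZNF395 was included. All of these were brighter at confluence, so only some of the genes that rose could be set beside the others. Each window is the 250 bases before an annotated start, 5′ to 3′ on the strand of the gene. Capitals mark ACGTG or GCGTG, the core of the hypoxia response motif, or their reverse complements CACGT and CACGC; overlapping matches were counted separately, so CACGTG counts on both strands.
DDIT4, chr10:72273674-72273923, plus strand: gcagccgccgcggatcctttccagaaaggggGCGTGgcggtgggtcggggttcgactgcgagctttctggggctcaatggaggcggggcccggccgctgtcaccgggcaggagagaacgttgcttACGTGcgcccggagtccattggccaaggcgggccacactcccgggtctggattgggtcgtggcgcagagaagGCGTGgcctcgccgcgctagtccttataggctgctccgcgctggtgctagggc
AK4, chr1:65147302-65147551, plus strand: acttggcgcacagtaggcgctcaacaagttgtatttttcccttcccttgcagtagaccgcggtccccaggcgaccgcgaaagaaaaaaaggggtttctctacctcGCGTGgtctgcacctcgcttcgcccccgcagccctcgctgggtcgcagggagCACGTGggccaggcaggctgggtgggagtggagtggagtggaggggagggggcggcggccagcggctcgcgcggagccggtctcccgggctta
EGLN1, chr1:231422288-231422537, minus strand: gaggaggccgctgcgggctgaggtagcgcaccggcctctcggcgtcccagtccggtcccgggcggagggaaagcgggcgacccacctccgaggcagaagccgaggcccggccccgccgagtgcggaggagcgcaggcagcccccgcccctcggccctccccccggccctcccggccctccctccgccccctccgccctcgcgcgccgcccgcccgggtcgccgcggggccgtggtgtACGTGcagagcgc
EPAS1, chr2:46297157-46297406, plus strand: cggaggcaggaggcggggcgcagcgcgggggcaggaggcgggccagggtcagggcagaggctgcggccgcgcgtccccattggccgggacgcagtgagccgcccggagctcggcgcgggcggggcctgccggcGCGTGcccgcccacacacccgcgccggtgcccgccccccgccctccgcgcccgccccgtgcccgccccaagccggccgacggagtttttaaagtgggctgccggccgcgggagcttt
STC2, chr5:173328415-173328664, minus strand: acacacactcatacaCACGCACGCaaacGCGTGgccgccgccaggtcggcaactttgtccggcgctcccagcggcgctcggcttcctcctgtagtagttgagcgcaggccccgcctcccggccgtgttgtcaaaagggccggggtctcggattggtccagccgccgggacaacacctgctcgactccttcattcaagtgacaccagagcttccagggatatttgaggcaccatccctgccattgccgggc

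DDIT4 and AK4, which were brighter at confluence, held 3 matches each in these windows. STC2, which was not, also held 3, and EGLN1 and EPAS1 held 1 each. Over all annotated starts of the 7 genes, 10 of 13 windows held the motif, among them at least 1 window of every gene; those without it were 1 of the 4 AK4 windows, 1 of the 3 MXI1 windows and 1 of the 2 HIF1A windows. The motif was found in 43.2% of the 35116 windows of the whole table. These windows were rich in G and C, with a median of 72.0% against 58.0% for all windows, and among windows with at least 60% G and C the motif was in 10 of 11 for these genes and in 59.4% of all 16148. A match says only that these letters are present.

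Between cells at 100% and at 40% confluence, the 10 genes fell into 2 kinds. DDIT4, MXI1, AK4, NDRG1, ZNF395 and STC1 were at least 5.67-fold brighter at confluence with either hairpin on their brightest probe sets, while HIF1A, EPAS1, EGLN1 and STC2 differed by less than 2-fold in either direction on theirs. Other probe sets of the first kind differed less, down to 3.76-fold for STC1 with p73 shRNA and 3.53-fold for AK4 with ns shRNA. At least 2-fold higher with both hairpins were thus 6 of the 10 genes, beside 3.23% of the 6759 genes above the brightness filter; this contrast was used in choosing the set, so nothing is read from that share. The same 6 were counted at thresholds of 1.5-fold and 3-fold. On the brightest probe sets the smallest difference among the 6 was the log2 difference of MXI1 with ns shRNA, 2.45, and the largest among the other 4 that of EGLN1 with p73 shRNA, 0.48. Log2 values here are of intensity plus 11.6, which understates changes of dim probe sets.

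**Figure D1:**
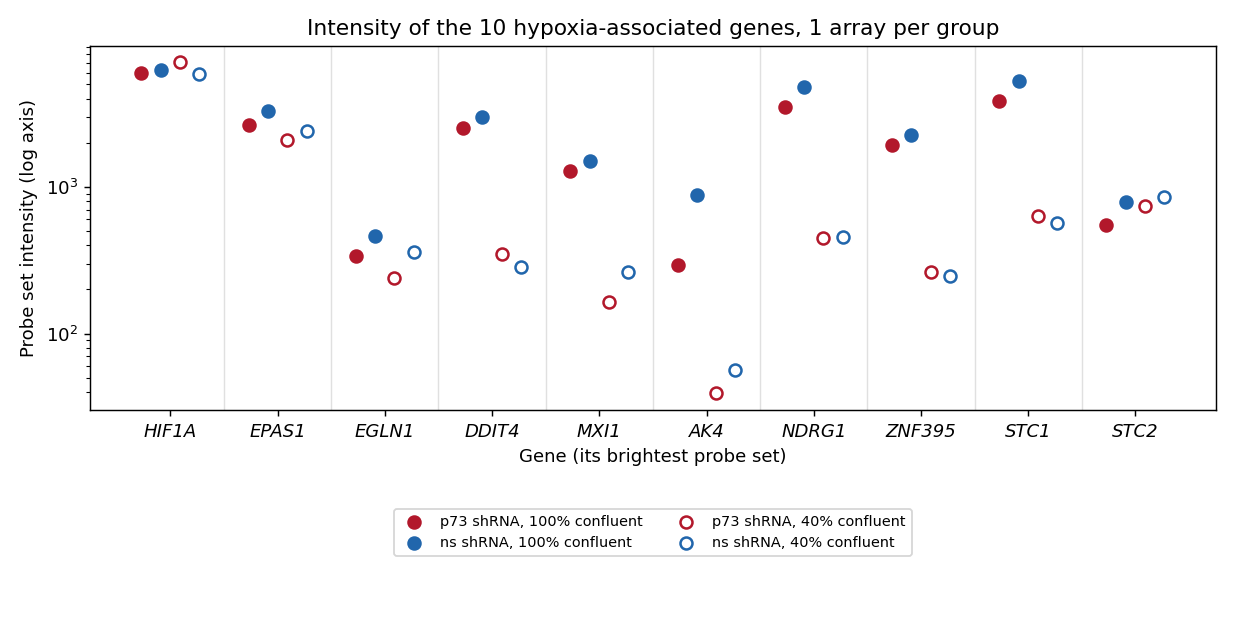
Probe set intensity (log axis) of the brightest probe set of each gene on the 4 arrays, with p73 shRNA in red, ns shRNA in blue, 100% confluence as filled and 40% as open circles; each point is 1 array. The filled points of DDIT4, MXI1, AK4, NDRG1, ZNF395 and STC1 stand well above their open points, and those of HIF1A, EPAS1, EGLN1 and STC2 lie close to them.

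The oxygen sensor and the factors it controls differed little. HIF1A, an alpha subunit of HIF, had intensities of 5977 (p73 shRNA) and 6284 (ns shRNA) at 100% confluence, against 7050 and 5919 at 40%. Its log2 difference was -0.24 with p73 shRNA and 0.09 with ns shRNA, so the arrays of both stages overlapped. EPAS1, the alpha subunit also called HIF2-alpha, had 2653 and 3295 at 100%, against 2101 and 2399 at 40%, with both confluent arrays brighter (log2 differences 0.34 and 0.46). A second EPAS1 probe set below the brightness filter went the other way, at 64.9 and 58.0 against 77.6 and 66.5. EGLN1, the main oxygen-dependent HIF hydroxylase, is read by a single probe set of a kind (x_at) that can also bind related transcripts. It had 337 and 461 at 100%, against 238 and 361 at 40%. The p73 shRNA array of confluent cells was thus below the ns shRNA array of sparse cells, and the stages overlapped.

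Regulators of growth and metabolism were among the genes with the largest differences. DDIT4, an inhibitor of the growth-promoting kinase complex mTORC1, had intensities of 2537 with p73 shRNA and 2983 with ns shRNA at 100% confluence, against 346 and 285 at 40%. This is 7.33-fold with p73 shRNA and 10.5-fold with ns shRNA, and DDIT4 ranked 5th of 6759 genes by the average log2 difference. MXI1, a repressor that competes with MYC for the partner MAX, had 1275 and 1497 at 100%, against 165 and 264 at 40%, and ranked 13th. Its difference was the larger one with p73 shRNA, 7.71-fold against 5.67-fold with ns shRNA.

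AK4, an adenylate kinase of the mitochondrial matrix, ranked 3rd and had the largest single difference of the set. Its probe set 204348_s_at had 293 (p73 shRNA) and 886 (ns shRNA) at 100%, against 39.1 and 56.7 at 40%, or 7.51-fold and 15.6-fold. The second AK4 probe set, 204347_at, lay below the brightness filter and had 140 and 154 at 100%, against 26.0 and 43.6 at 40%. Both probe sets were brighter at confluence with either hairpin, but they disagreed on the hairpins: only on 204348_s_at was the difference smaller with p73 shRNA.

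NDRG1, a cytoplasmic protein induced by several stresses, ranked 2nd. Its intensities were 3511 with p73 shRNA and 4802 with ns shRNA at 100%, against 448 and 454 at 40%. ZNF395, a zinc finger transcription factor, had 1929 and 2269 at 100%, against 263 and 247 at 40%, and ranked 7th. The stages did not overlap in either gene, and at 100% the p73 shRNA array was the dimmer one for both, by 0.45 on the log2 scale for NDRG1. A further probe set, annotated to ZNF395 together with a neighbouring gene, was left out by the rule.

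The stanniocalcins, secreted glycoproteins related to a calcium-regulating hormone of fish, differed from each other. STC1 had 3871 (p73 shRNA) and 5258 (ns shRNA) at 100%, against 629 and 570 at 40%, on its brightest probe set. Its other probe sets, 204597_x_at and 204596_s_at, gave log2 differences of 1.88 and 2.31 with p73 shRNA and of 2.40 and 2.50 with ns shRNA. All 3 STC1 probe sets were thus more than 2-fold brighter at confluence. STC2 had 547 and 785 at 100%, against 742 and 849 at 40%. Its second probe set had 401 and 641 at 100%, against 873 and 776 at 40%, a log2 difference of -1.10 with p73 shRNA and -0.27 with ns shRNA. STC2 was thus the one gene whose probe sets were all dimmer in confluent cells with either hairpin.

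**Figure D2:**
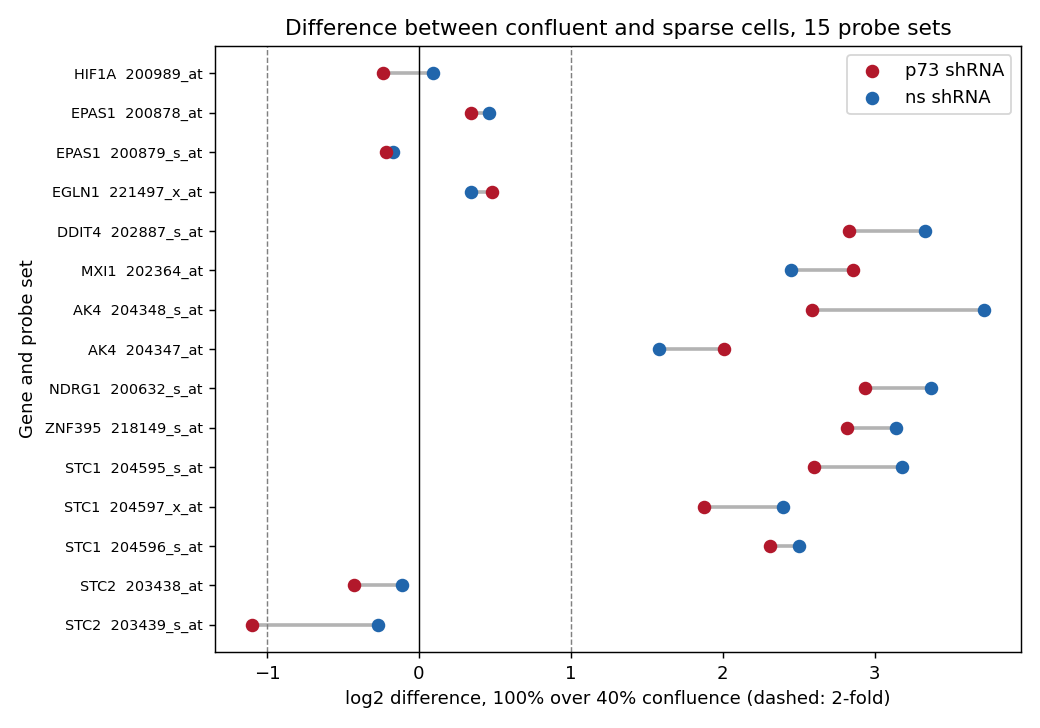
Log2 difference between 100% and 40% confluence for the 15 probe sets, with p73 shRNA in red and ns shRNA in blue; grey bars join the hairpins and dashed lines mark 2-fold. DDIT4, MXI1, AK4, NDRG1, ZNF395 and STC1 lie between 1.58 and 3.72 over all their probe sets, and of the others only the second STC2 probe set passes a dashed line, at -1.10 with p73 shRNA.

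The p73 hairpin was compared with the ns hairpin, to ask whether these genes differ when p73 is targeted. This contrast did not choose the members, but its results were known when they were chosen. AK4 was called lower on its brightest probe set, and none of the other 9 genes passed the test over both stages. One called gene among 10, in the lower direction, stands beside 1.58% of all genes called lower and 1.14% called higher (limma with confluence as a second factor, Benjamini-Hochberg adjusted p below 0.05). These are 77 higher and 107 lower calls; with arrays scaled to the same median they were 104 higher and 85 lower. The average log2 change of AK4 was -0.99 (SE 0.27, limma adjusted p 0.0117), made up of -1.56 at 100% and -0.43 at 40%. The 2 AK4 ratios differed by -1.13 (100% minus 40%). This spread did not set the SE, which is pooled over genes of like brightness. AK4 ranked 21st of 6759 by its average fall and 7th by its fall at 100%. This rests on 204348_s_at, which passed the brightness filter through its confluent arrays: at 40% both intensities lay below the filter's 110.9. Its other probe set had ratios of -0.13 at 100% and -0.56 at 40%. AK4 was not tested with the filter at the 70th percentile or with the mean of its probe sets, which put it below the filter, and the call was lost without the brightness filter (limma adjusted p 0.5) and with confluence left out of the model (limma adjusted p 1).

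EGLN1 averaged -0.51 (SE 0.21, limma adjusted p 0.195), with ratios of -0.44 at 100% and -0.58 at 40%. MXI1 averaged -0.43 (SE 0.18, limma adjusted p 0.219) and STC2 -0.35 (SE 0.17, limma adjusted p 0.341). EGLN1, MXI1, STC2 and AK4 were the 4 genes with an unadjusted limma p below 0.05, and of these only AK4 passed after adjustment. Beside these 4 of 10 stand 922 of all 6759 genes, which is also the background for such counts in the lists below. EPAS1 averaged -0.25 (-0.04 with the mean of its probe sets) and NDRG1 -0.23, followed by STC1 at -0.15, ZNF395 at -0.07, DDIT4 at 0.02 and HIF1A at 0.09 (0.01 after quantile normalization). Their limma adjusted p-values ranged from 0.461 for EPAS1 to 0.988 for DDIT4. With 1 array per group, the error of every gene comes from the spread pooled over genes of like brightness, and nothing says that the cultures were independent, so a p-value here covers no spread between cultures.

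At 100% confluence all 10 genes had a ratio below 0, where 50.2% of all genes did. Of the 218 genes at least 2-fold higher at confluence with both hairpins, 64.7% did. The median log2 ratio was -0.37 for the 10 genes and 0.00 for all genes. HIF1A was nearest to 0 at -0.07. DDIT4, MXI1 and ZNF395 followed at -0.23 each and EPAS1 at -0.31, and NDRG1 (-0.45), STC1 and EGLN1 (-0.44 each) were lower. STC2 was at -0.51 and AK4 lowest. Of the 15 probe sets, 14 were below 0 at this stage, and the exception was the dim EPAS1 probe set 200879_s_at. At 40% confluence 6 of 10 genes were below 0, against 50.1% of all genes, with a median of -0.10. These ratios at one stage come from the same pair of arrays and have no replicate check. The same arrays entered the confluence difference that partly chose the members, so nothing is read from the count of all 10.

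**Figure D3:**
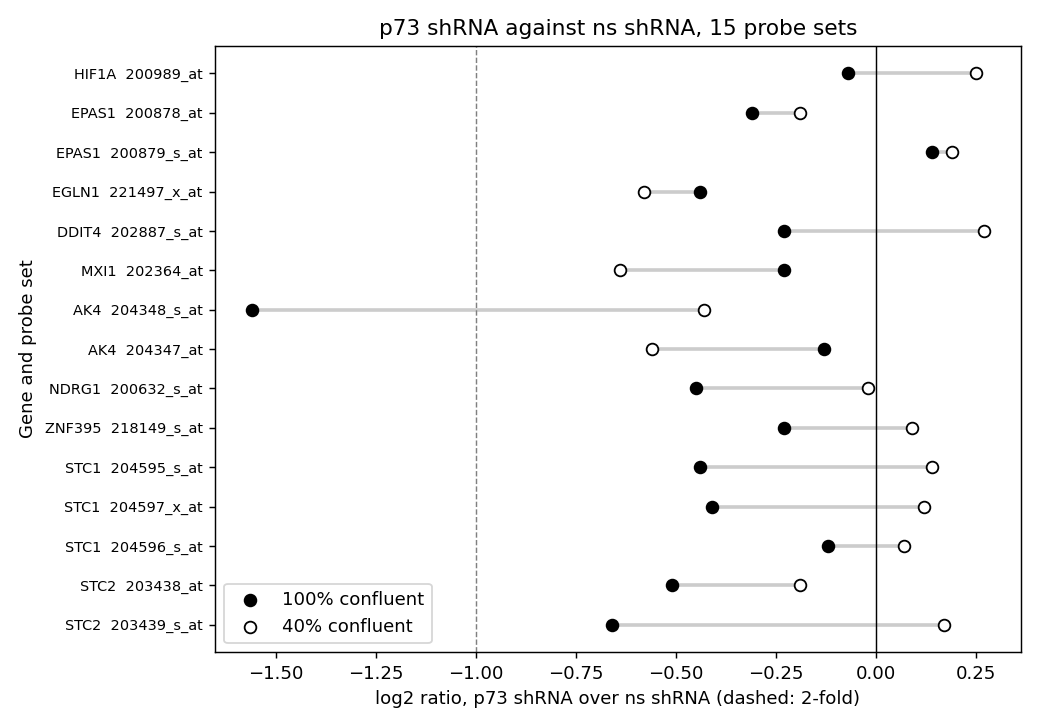
Log2 ratio of p73 shRNA over ns shRNA for the 15 probe sets, with 100% confluence as filled and 40% as open circles; the dashed line marks a 2-fold lower value and each point is a ratio of 2 arrays. All filled points but that of the dim EPAS1 probe set (0.14) lie below 0, and only AK4 204348_s_at passes 2-fold, at -1.56.

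Seen the other way, the log2 difference of 100% minus 40%, sign included, was lower with p73 shRNA than with ns shRNA in 8 of the 10 genes, against 49.5% of all genes. In STC2 and HIF1A, 2 of these 8, the lower value was a larger fall at confluence. Among the 6 genes that were 2-fold higher, the rise was smaller with p73 shRNA in 5, and MXI1 was the exception. Of all 218 genes at least 2-fold higher at confluence with both hairpins, 64.7% were below 0 with p73 shRNA at 100%, with a median of -0.09, and 48.2% had the smaller rise with p73 shRNA. The difference between hairpins in the confluence response is the residual of the model and could not be tested.

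Other hypoxia-inducible genes outside glycolysis were described from a list of 30, of which 23 lay above the brightness filter. At confluence 19 of the 23 rose and 1 fell (limma, Benjamini-Hochberg adjusted p below 0.05), beside 20.4% and 16.1% of all genes, a pattern already known when the list was written. With arrays scaled to the same median 18 rose and 1 fell, while the calls over all genes turned to 822 higher and 1982 lower, against 1382 and 1089. VEGFA, the vascular endothelial growth factor, averaged 3.46 on the log2 scale, with intensities of 2696 (p73 shRNA) and 3357 (ns shRNA) at 100%, against 248 and 280 at 40%. On the same scale BHLHE40, a transcriptional repressor, rose by 2.47, the histone demethylase KDM3A by 1.84 and the mitophagy receptor BNIP3L by 1.79. A second BHLHE40 probe set, below the brightness filter, averaged 0.86. The one that fell was ADM, the vasodilator peptide adrenomedullin, at -1.04 with p73 shRNA and -0.34 with ns shRNA.

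With p73 shRNA none of the 23 passed the test by limma, and 3 had an unadjusted p below 0.05, PLOD2, BNIP3L and ADM. At 100% confluence 22 of the 23 had a ratio below 0, the exception being ERO1A, an oxidase of the endoplasmic reticulum, at 0.20, chosen for naming after its value was seen. This count was added after seeing the data, and the list was written with earlier results known. It uses the same pair of arrays as the members' ratios, so it is no independent check of them. The list's median ratio was -0.18 at 100%, and the lowest was -0.46, for the collagen-modifying enzyme PLOD2. At 40% confluence 13 of 23 were below 0 and the median was 0.00. On the same arrays, 9 of 19 glycolysis genes were below 0 at 100%, with a median of 0.01 there and of 0.06 at 40%. Among these, ENO2, an enolase, averaged -0.42 (limma adjusted p 0.29), and GAPDH 0.40 (limma adjusted p 0.0772); none of the 19 passed, and 3 had an unadjusted p below 0.05, GAPDH, ENO2 and ENO1. The GAPDH value was 0.07 after quantile normalization (limma adjusted p 0.863) and was called with arrays scaled to the same median (0.43, limma adjusted p 0.0468). At confluence 7 of the 19 rose and GAPDH, ENO1 and HK1 fell; all 3 falls lost the call without the brightness filter and with the hairpin left out of the model, and that of ENO1 also after quantile normalization. Of the 7, 2 were at least 2-fold higher with both hairpins, ALDOC, an aldolase (average 2.32), and ENO2 (average 2.00).

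**Figure D4:**
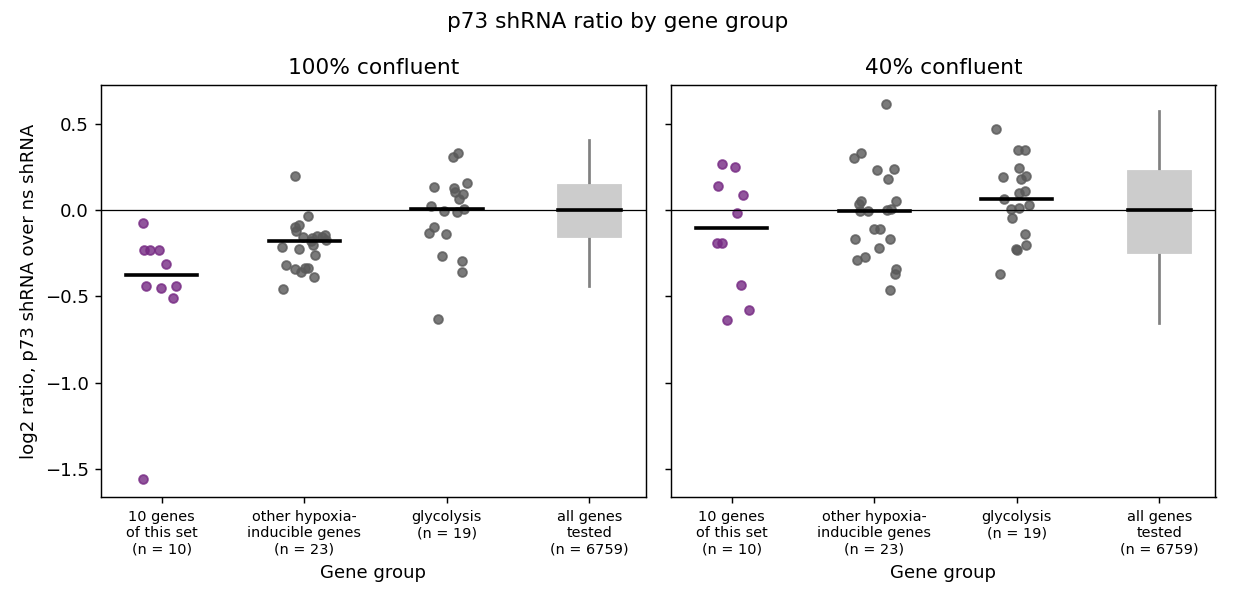
Log2 ratio of p73 shRNA over ns shRNA at 100% (left) and 40% confluence (right) for the 10 genes, for 23 other hypoxia-inducible genes and 19 glycolysis genes, each point a gene and each black line a median; all 6759 genes are shown as a box from the 25th to the 75th percentile with lines to the 5th and 95th. At 100% the medians are -0.37, -0.18, 0.01 and 0.00 from left to right.

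In the rest of the HIF system 1 gene was called with p73 shRNA and 3 at confluence. At confluence 20.4% of all genes were called higher and 16.1% lower. Of 10 further members above the filter, besides HIF1A, EPAS1 and EGLN1, 1 fell with p73 shRNA: CITED2, which competes with HIF for the coactivators EP300 and CREBBP. It had 2001 (p73 shRNA) and 2639 (ns shRNA) at 100%, against 2087 and 3993 at 40%, and averaged -0.66 (SE 0.14, limma adjusted p 0.00078). Its second probe set had 1727 and 1794 at 100%, against 2574 and 2849 at 40%. The CITED2 call was lost with the mean of both probe sets (limma adjusted p 0.201), without the intensity trend (limma adjusted p 0.113), without the brightness filter (limma adjusted p 0.334) and with confluence left out (limma adjusted p 1). At confluence the HIF partner ARNT (average 0.68), its relative ARNT2 (0.93) and EP300 (0.61) rose and none of the other 7 passed. All 3 calls were lost without the brightness filter (limma adjusted p 0.0744, 0.091 and 0.158), and those of ARNT and EP300 also with scaling to the same median and with the mean of probe sets. A second ARNT probe set above the filter averaged -0.31. CITED2 averaged -0.33 at confluence (limma adjusted p 0.0614) and was called lower under 3 alternatives, at limma adjusted p-values of 0.00139 to 0.0489.

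None of the genes around single members was called with p73 shRNA. The confluence calls below stand beside 20.4% of all genes called higher and 16.1% called lower. Of 10 regulators of mTORC1 none passed with p73 shRNA by limma, 3 at an unadjusted p below 0.05, and the kinase RPS6KB1 (average 0.71) and the tumour suppressor TSC2 (0.54) rose at confluence. A second RPS6KB1 probe set above the filter averaged -0.12 at confluence. In the MYC and MAX network none of 7 passed with p73 shRNA by limma, 0 at an unadjusted p below 0.05. At confluence MGA (1.04), MNT (0.71) and MXD3 (0.65), repressors that use MAX, rose and MYC fell (-0.38). The calls of TSC2, MXD3 and MYC were lost after quantile normalization, and those of TSC2, MXD3, MYC and MNT without the brightness filter. Of 4 close relatives above the filter (NDRG3, AK1, AK5 and SLC2A4RG) none passed with p73 shRNA by limma, 0 at an unadjusted p below 0.05, and NDRG3 rose at confluence (0.62). A second NDRG3 probe set above the filter averaged 0.08 at confluence. Amino acid and unfolded protein stress is another reported route to DDIT4, NDRG1 and STC2. Of its 13 genes 5 fell at confluence, the serine synthesis enzyme PSAT1 (average -1.50), PPP1R15A (-1.01), the asparagine synthetase ASNS (-0.98), DDIT3 (-0.85) and ATF4 (-0.46), and CEBPB rose (0.57). None of the 13 passed with p73 shRNA by limma, and 1, ASNS, had an unadjusted p below 0.05. Among 8 genes often used as references, 1 rose with p73 shRNA, ACTB (average 0.53), a call lost after quantile normalization (limma adjusted p 0.599), and 4 had an unadjusted p below 0.05, ACTB, PPIA, GAPDH and YWHAZ. At confluence 3 of the 8 fell, GAPDH (-0.58), ACTB (-0.43) and PPIA (-0.33). After quantile normalization these values were -0.26 for GAPDH, which kept its call (limma adjusted p 0.0492), -0.03 for ACTB and 0.01 for PPIA.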

How the data were processed

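Per the labels, trizol-extracted total RNA was biotin-labelled and run on Affymetrix arrays by the maker's standard protocol. The authors deposited 1 linear intensity per probe set and array; no source used here names the summary software. With 2% trimmed from each end, every array averages 500.1 to 500.2; such scaling hides a change shared by most genes. Of 22277 probe sets 62 were controls; 19070 had 1 gene symbol, 1043 several and 2164 none listed, and Entrez IDs gave 19058 of them a current symbol.

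Log2(intensity + 11.6) was used, 11.6 being the 20th percentile. A gene took its brightest probe set and was kept at the median log2 of 6.94 or above (6759 genes). All 10 members passed; of their 15 probe sets 13 did. A gene below the filter is not shown to be absent. The number of arrays limits precision. The additive model of shRNA and confluence was fitted in R 4.3.3 with limma 3.58.1, with an intensity trend, two-sided, Benjamini-Hochberg over 6759 genes; it has 1 residual degree of freedom and infinite prior degrees of freedom. Tested on simulated data for p73 shRNA against ns shRNA (6759 genes), with spread differing between genes, it found 84.5% of genes changed 1.5-fold and 100% of those changed 2-fold; of 214 calls, 12.6% were false, against a nominal 5%. The simulated spread followed a smooth curve through square roots of the residual spreads, which tends to lie below the spread in the arrays. Recovery can thus be overstated, and it does not show that members not called were unchanged. The members and lists were chosen with earlier results of these data known. The rule named all members and, of each list, the genes with the largest average changes; ADM, ERO1A, MYC, ENO1, HK1, ATF4, CEBPB and YWHAZ were added after their values were seen. Figures were drawn with matplotlib 3.10.9.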

Additional observations from a re-analysis of the deposited data

Results flagged for a closer look

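In 4 of the 10 genes the p73 shRNA ratio ran in opposite directions at the 2 stages. This difference was not tested, since each stage has 1 array per hairpin. The share of all genes with opposite directions was not counted, so nothing is read from the 4. DDIT4 had a log2 ratio of -0.23 at 100% and 0.27 at 40% confluence. STC1 had -0.44 at 100% and 0.14 at 40%, and all 3 of its probe sets showed these directions. HIF1A had -0.07 at 100% and 0.25 at 40%, and ZNF395 had -0.23 at 100% and 0.09 at 40%. HIF1A also differed in direction between hairpins at confluence, with a log2 difference of -0.24 with p73 shRNA and 0.09 with ns shRNA, again not tested.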

How the results depend on the processing

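Under 10 alternatives the p73 shRNA value of each member kept its direction in all 97 results computed, and 2 lost the call, both of AK4. Its adjusted p by limma ranged from 0.00489 to 0.0374 in 6 alternatives, was 0.5 without the brightness filter and 1 with confluence left out; with the filter at the 70th percentile or the mean of its probe sets AK4 fell below the filter. No member was therefore called lower (0) in these 4 settings, against 1. Confluence differences of members moved by less than the spread between hairpins in 74 of 77 results. The exceptions were EGLN1 (0.22) and EPAS1 (0.20) with arrays scaled to the same median, which shifts the median confluence difference of all genes to -0.18, and EPAS1 (0.10) with the mean of its probe sets. Over all genes, 77 higher and 107 lower calls with p73 shRNA became 104 and 85 with arrays scaled to the same median, 46 and 59 after quantile normalization, 17 and 23 when a gene's probe sets were averaged, 1 and 3 without the filter and 26 and 48 when the intensity trend was dropped. With confluence left out they became 0 and 0, with 58 genes at an unadjusted p below 0.05. The 10 ratios below 0 at 100% held wherever all 10 genes passed the filter, and otherwise for 8 of 8 and 9 of 9; of the other hypoxia-inducible genes 22 of 23 were below 0 in most settings, 20 of 23 with the mean of probe sets, 26 of 28 without the filter and 19 of 19 with the filter at the 70th percentile, a count added after seeing the data. Average p73 shRNA changes that were not called changed sign for ARNT (0.12, against -0.20) and BHLHE40 (0.05) with the mean of probe sets, KDM3A (-0.01) with a pseudocount at the 40th percentile, and ALDOC (0.01), CEBPB (0.01) and MYC (0.02) with scaling to the same median, and the confluence difference of PPIA (0.01) with quantile normalization and that of YWHAZ, not called, with scaling to the same median (-0.07) and the mean of probe sets (-0.13); the cause was not tested. For the named genes that are not members, 51 of 309 confluence results lost the call, besides that of PPIA, and 3 gained one; that of HK1 was lost without the trend, and those of RPS6KB1 and NDRG3 with the mean of probe sets. No paired analysis was possible because no group has more than 1 array; confluence as a second factor takes that place. Dim signal limits AK4 at 40% confluence and the second EPAS1 probe set.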
